A study of Homo sapiens with 4 samples.

Results

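The genes described here are CDX2 and 9 genes around it in chromosome band 13q12, namely PDX1, POLR1D, LNX2, GTF3A, MTIF3, PAN3, FLT3, FLT1 and USP12. They were chosen by symbol for their place on the chromosome. All 24 probe sets that the array annotation assigns to exactly 1 of these symbols were used, out of 54613 probe sets tested, and 0 further probe sets name a member together with another gene. The 10 genes stand among 19775 genes measured. RNA of 320-IWR cells and of COLO-320DM cells was hybridised to 4 Affymetrix arrays of the type U133 Plus 2.0, with 2 arrays per line. COLO-320DM is an established line of human colorectal cancer, and 320-IWR is the subline obtained from it by long exposure to IWR-1, an inhibitor of tankyrase. 320-IWR is a single resistant subline, and no untreated subline of matched passage was analysed here. Whether IWR-1 was in the medium at harvest is not given in the sources used here. Nothing in the labels says that the replicates were separate cultures, so each p-value covers the spread among the 4 arrays alone, and that spread may be technical. The aim of the comparison was to find genes that differ in cells resistant to tankyrase inhibition.

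As background, the band holds the ParaHox cluster of homeobox genes, GSX1, PDX1 and CDX2, which lie side by side. CDX2 is the transcription factor that specifies and maintains intestinal epithelium, and it is a standard marker of colorectal origin. COLO-320DM takes its name from double minutes, the small extrachromosomal DNA bodies that carry amplified MYC in this line. DNA copy number was not measured here, so a level of RNA cannot be read as a number of gene copies.

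No member differed between the lines by the test used. A probe set is said to rise or fall at a Benjamini-Hochberg adjusted p under 0.05 in limma, fitted over all 54613 probe sets, together with at least a 2-fold difference. Of the 24 probe sets, 0 rose and 0 fell, against 0.112% and 0.258% of all probe sets, or 0.37% in either direction. At an unadjusted p under 0.05 there was 1 of 24, against 9.71% of all probe sets. The smallest adjusted p of a member was 0.381. The arrays of the lines did not overlap in 9 probe sets, 7 of 24 higher in 320-IWR cells (19.5% of all probe sets) and 2 of 24 lower (16.1%). The 95% limits of all 24 log2 fold changes lay between a 2-fold decrease and a 2-fold increase, as they did for 88.5% of all probe sets. For 16 of the 24 they lay within 1.5-fold, against 57.2% of all probe sets. These limits are not adjusted for the number of probe sets. A p that misses the threshold does not show equal expression, and these limits give the size of difference that the arrays leave possible. They rest on 4 arrays, so differences smaller than about 1.5-fold could not be settled. For the probe sets whose limits reach beyond 1.5-fold, this fit leaves larger differences possible too, up to 1.97-fold for GTF3A probe set 238880_at. The fit has no term for the replicate number, although same-numbered replicates deviated partly together in both lines (r = 0.661 across all probe sets). Such common deviations count as spread in these limits, and limits from a fit with a replicate block are not given here.

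**Figure D1:**
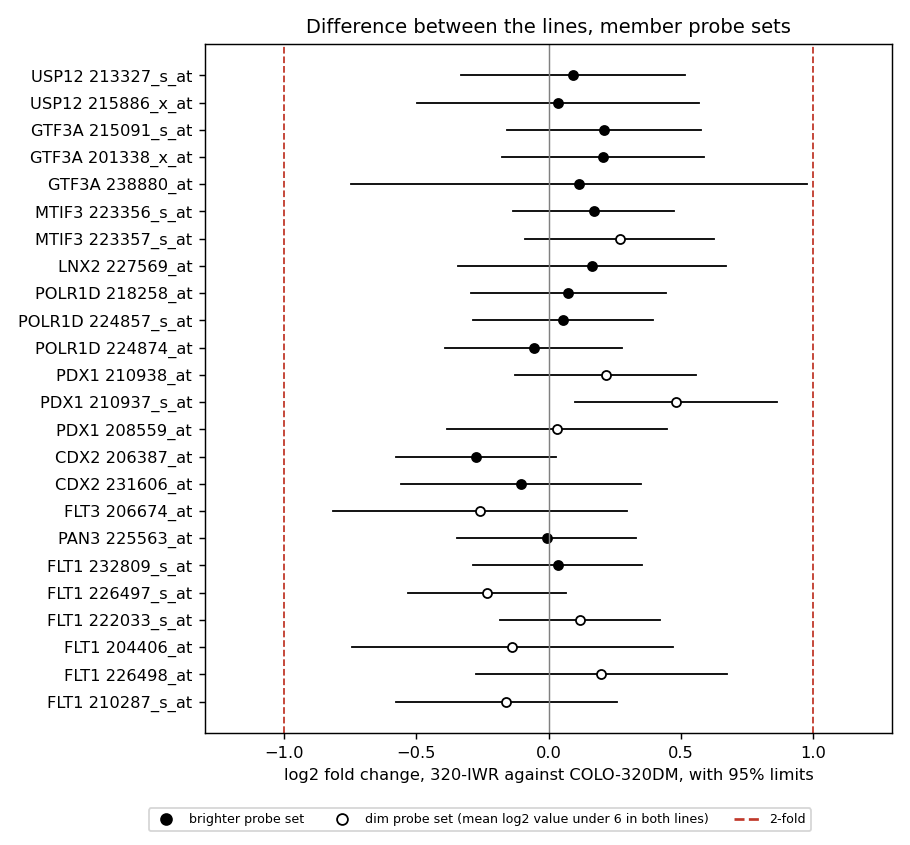
Log2 fold change of each of the 24 member probe sets, 320-IWR against COLO-320DM, with its 95% limits from limma as a horizontal line. Filled points are brighter probe sets and open points dim ones (mean log2 value under 6 in both lines), and every line stays between the dashed 2-fold marks.

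A probe set is called dim here where its mean log2 value was under 6 in both lines, that is, 10 of the 24 probe sets. The files used here hold no detection calls, so the distance of such a value above background is unknown and its fold change may be understated. All 3 probe sets of PDX1, the probe set of FLT3, 5 of 6 of FLT1 and 1 of 2 of MTIF3 were dim. The levels of different probe sets were not compared with each other, since each probe set has its own affinity. Array medians lay between 41.1 and 41.9.

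**Figure D2:**
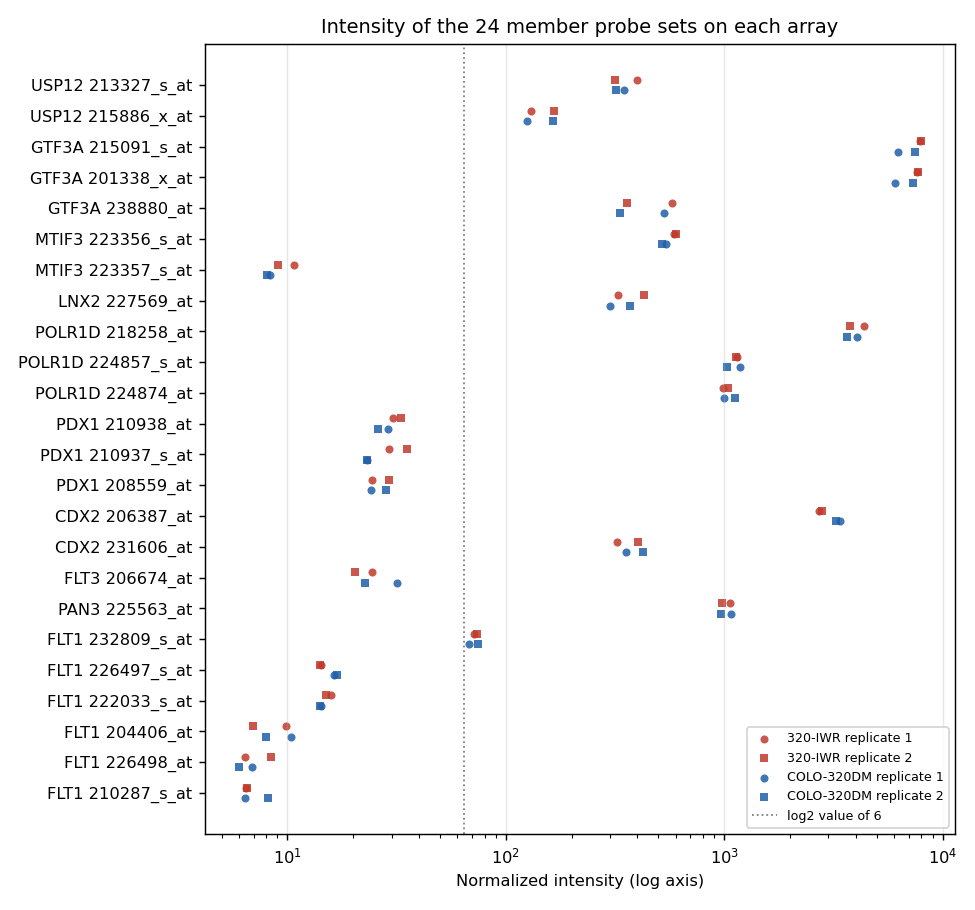
Normalized intensity (log axis) of the 24 member probe sets, array by array, with 320-IWR in red above COLO-320DM in blue, circles for replicate 1 and squares for replicate 2. The dotted line marks a log2 value of 6, and in most rows the red and blue points overlap.

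CDX2 gave bright signals in both lines, with lower values in 320-IWR cells that did not pass the test. Its brighter probe set, 206387_at, had intensities of 2723 and 2790 in 320-IWR cells, against 3403 and 3263 in COLO-320DM cells. Both 320-IWR arrays lay below both COLO-320DM arrays. The log2 fold change was -0.27 (standard error 0.12, 95% limits -0.58 to 0.03), a ratio of 0.827 (limma adjusted p = 0.577). The second probe set, 231606_at, had 324 and 404 in 320-IWR cells, against 356 and 425 in COLO-320DM cells. Here the arrays of the lines overlapped, and the log2 fold change was -0.10 (95% limits -0.56 to 0.35). Both probe sets point the same way, and the limits of both exclude a 2-fold decrease.

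The DNA before the CDX2 start is shown because CDX2 is the gene on which the group is centred and because the study concerns a drug of the Wnt pathway, whose transcription factors TCF and LEF bind CTTTGA or close variants. The sequence is RefSeq's, chr13:27969316-27969565 of GRCh38.p14 on the minus strand, the 250 bases upstream of the start, with CTTTGA and the CCAAT box (CCAAT, or ATTGG on the other strand) in capitals.
CDX2: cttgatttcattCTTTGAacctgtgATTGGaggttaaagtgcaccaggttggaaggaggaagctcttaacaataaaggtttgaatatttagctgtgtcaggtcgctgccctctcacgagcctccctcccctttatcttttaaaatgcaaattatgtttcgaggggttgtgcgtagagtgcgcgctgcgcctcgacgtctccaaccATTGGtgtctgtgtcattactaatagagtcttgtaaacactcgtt
The CTTTGA match lies 238 to 233 bases before the start. On either strand, CTTTGA was found in 1 of 10 windows of 300 bases that the table holds for 9 of the members, that of CDX2, and in 12.9% of all 34943 such windows. A match is a string of letters and not a measured binding site.

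PDX1, the homeobox factor of pancreas and duodenum, gave low values on all arrays. Probe set 210937_s_at had 29.1 and 35.4 in 320-IWR cells, against 23.0 and 23.0 in COLO-320DM cells, with no overlap. Its log2 fold change of 0.48 (standard error 0.15, 95% limits 0.10 to 0.86) was the largest of the 24, with an unadjusted p of 0.0236 and an adjusted p of 0.381 in limma. The brightest PDX1 probe set, 210938_at, had 30.3 and 33.1 in 320-IWR cells, against 28.8 and 25.9 in COLO-320DM cells, also without overlap (log2 fold change 0.22, 95% limits -0.13 to 0.56). The third, 208559_at, overlapped between the lines (log2 fold change 0.03, 95% limits -0.38 to 0.45). All PDX1 probe sets are dim, so neither expression of PDX1 nor its lack can be read from them. GSX1, the remaining gene of the cluster, had 17.4 and 13.6 in 320-IWR cells, against 16.9 and 14.5 in COLO-320DM cells, and is dim as well.

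POLR1D encodes a subunit that RNA polymerases I and III share, and GTF3A encodes TFIIIA, the zinc finger factor that directs RNA polymerase III to the 5S ribosomal RNA genes. POLR1D probe set 218258_at had 4344 and 3772 in 320-IWR cells, against 4064 and 3640 in COLO-320DM cells. The arrays overlapped, and the log2 fold change was 0.07 (95% limits -0.29 to 0.44). The other POLR1D probe sets had log2 fold changes of 0.06 and -0.06, with limits between -0.39 and 0.40. All 3 POLR1D probe sets are among the brighter ones, and in each of them the arrays of the lines overlapped.

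The brightest GTF3A probe set, 215091_s_at, had 7885 and 7965 in 320-IWR cells, against 6274 and 7481 in COLO-320DM cells. Both 320-IWR arrays lay above both COLO-320DM arrays, and the COLO-320DM arrays lay farther apart from each other than the 320-IWR arrays. The log2 fold change was 0.21 (standard error 0.14, 95% limits -0.16 to 0.58, limma adjusted p = 0.801). It was 0.083 without COLO-320DM replicate 1 and 0.34 without COLO-320DM replicate 2. Probe set 201338_x_at had a log2 fold change of 0.20, and its arrays did not overlap either. The suffixes _s_at and _x_at of these 2 probe sets mark probes that can be shared with other transcripts. Probe set 238880_at, without such a suffix, had 577 and 358 in 320-IWR cells, against 530 and 333 in COLO-320DM cells, with overlap (log2 fold change 0.11). Its replicates differed by 1.61-fold within 320-IWR and by 1.59-fold within COLO-320DM, more than the lines did (1.08-fold). Its limits are therefore the widest of the 24 (-0.75 to 0.98). Replicate 1 was the higher in both lines, a difference in common that this fit, without a replicate term, counts as spread.

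MTIF3 encodes an initiation factor of mitochondrial translation, and PAN3 a subunit of the PAN2-PAN3 deadenylase, which shortens the poly(A) tails of mRNA. MTIF3 probe set 223356_s_at had 590 and 604 in 320-IWR cells, against 544 and 518 in COLO-320DM cells. The arrays did not overlap, and the log2 fold change was 0.17 (95% limits -0.13 to 0.47, limma adjusted p = 0.810). The dim probe set of MTIF3 had a log2 fold change of 0.27, again without overlap. PAN3 had 1062 and 972 in 320-IWR cells, against 1074 and 971 in COLO-320DM cells, the nearest values of any member (log2 fold change -0.0075, 95% limits -0.35 to 0.33).

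LNX2 and USP12 act on ubiquitin in opposite ways: LNX2 encodes a ubiquitin ligase of the family that binds Numb, and USP12 a deubiquitinase. LNX2 had 327 and 428 in 320-IWR cells, against 301 and 370 in COLO-320DM cells. The arrays overlapped, and the log2 fold change was 0.16 (standard error 0.19, 95% limits -0.34 to 0.67). USP12 probe set 213327_s_at had 398 and 316 in 320-IWR cells, against 348 and 319 in COLO-320DM cells (log2 fold change 0.09, 95% limits -0.33 to 0.51). The arrays of its other probe set, 215886_x_at, overlapped too (log2 fold change 0.04). Both USP12 probe sets carry a suffix, _s_at or _x_at, that marks probes shared with other transcripts.

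LNX2 and POLR1D are transcribed away from each other, and 213 bases lie between their start sites in the RefSeq promoter table, whose LNX2 start differs from that of the RefSeq gene table. The bases between them, chr13:27620530-27620742 of GRCh38.p14, are shown on the plus strand, that of POLR1D, because this stretch lies upstream of both genes. Capitals mark its CCAAT box.
LNX2-POLR1D: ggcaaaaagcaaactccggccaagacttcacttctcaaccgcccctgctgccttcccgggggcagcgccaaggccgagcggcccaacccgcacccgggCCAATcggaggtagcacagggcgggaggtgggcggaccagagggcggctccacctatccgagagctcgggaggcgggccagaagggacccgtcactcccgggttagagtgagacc
A CCAAT box stood in 4 of 10 member windows, those of CDX2, FLT3, LNX2 and POLR1D, and in 34.6% of all windows. The windows of LNX2 and POLR1D share 287 of 300 bases, so these 2 hold the same CCAAT box, and the window of a second POLR1D start holds none. By brightest probe set, the 2 genes were both slightly higher on average in 320-IWR cells (log2 fold changes 0.16 and 0.07), but not beyond the spread. Replicate 1 over replicate 2 was 0.764 for LNX2 in 320-IWR cells and 0.814 in COLO-320DM cells. For POLR1D probe set 218258_at it was 1.15 and 1.12, the opposite way. POLR1D probe set 224874_at had 0.945 and 0.893, on the same side as LNX2, and 224857_s_at had 1.01 and 1.15. Whether the 2 genes moved together between replicates therefore depends on the POLR1D probe set.

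FLT3 and FLT1 encode receptor tyrosine kinases. FLT3 acts in blood progenitors, and FLT1 binds VEGF on endothelium. FLT3 had 24.5 and 20.4 in 320-IWR cells, against 31.7 and 22.5 in COLO-320DM cells. The arrays overlapped, and the log2 fold change was -0.26 (standard error 0.21, 95% limits -0.82 to 0.30). It moved with single COLO-320DM arrays, being -0.014 without replicate 1 and -0.51 without replicate 2. The E-box CACGTG, a string that MYC and its partners bind, stood in 1 of 10 member windows, that of FLT3, and in 7.23% of all windows. It is shown for that reason, with 12 bases on each side, from chr13:28100742-28100771 of GRCh38.p14 on the minus strand, the E-box in capitals.
FLT3: gaccgcggcgggCACGTGggctcggctgca
The brightest FLT1 probe set, 232809_s_at, had 71.4 and 74.1 in 320-IWR cells, against 67.9 and 74.3 in COLO-320DM cells (log2 fold change 0.03, 95% limits -0.29 to 0.35). Its 5 dim probe sets had log2 fold changes between -0.23 and 0.20, in both directions. Among them, 226497_s_at was lower on both 320-IWR arrays than on both COLO-320DM arrays (log2 fold change -0.23) and 222033_s_at was higher (0.12). The sign of FLT1 therefore depends on the probe set.

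With each gene taken by its brightest probe set, 7 of 10 members had a positive log2 fold change, against 54.2% of all genes. The median was 0.08, against 0.02 over all genes, and the members ran from -0.27 for CDX2 to 0.22 for PDX1. The arrays did not overlap in 4 members, all higher in 320-IWR cells for PDX1, GTF3A and MTIF3 (3 of 10, against 21% of all genes) and all lower for CDX2 (1 of 10, against 17.5%). Together these 4 of 10 stand beside 38.6% of all genes, so the share is near the background. Replicates differed on average more than the lines did in 15 of the 24 probe sets, and in 18 of the 24 same-numbered replicates lay on the same side in both lines. These counts were made for the members only, without a share over all probe sets, so they cannot be read as a trait of the members. Across all probe sets the replicate deviations of the lines correlated too (r = 0.661).

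Genes beside the members were not called either. Of 4 other measured genes between the members (RASL11A, GSX1, LINC00543 and PAN3-AS1), limma called 0, and their log2 fold changes ran from -0.33 to 0.13. Of 15 measured genes on the centromeric side of USP12 it called 0 (median log2 fold change 0.04), and of 15 on the telomeric side of FLT1 it called 0 (median -0.05), with 1 and 0 at an unadjusted p under 0.05. That 1 gene, named after its value was seen, was MTMR6 (log2 fold change 0.39, limma adjusted p = 0.388). Among all genes 0.592% were called. The nearest on the centromeric side were GPR12, WASF3, CDK8, RNF6 and SHISA2, with log2 fold changes between -0.34 (WASF3) and 0.16 (SHISA2). The nearest on the telomeric side were POMP, SLC46A3, MTUS2, MTUS2-AS1 and SLC7A1, with values between -0.10 and 0.11. In the order of the genes, LINC00543, CDX2 and FLT3 were consecutive and had log2 fold changes of -0.33, -0.27 and -0.26, while GTF3A, MTIF3 and LNX2 were consecutive with 0.21, 0.17 and 0.16. These runs were noticed after the values were seen, no member of them passed the test, and LINC00543 and FLT3 are dim. On the remainder of chromosome 13, 4 of 357 genes rose and 2 fell, and the median was -0.03.

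**Figure D3:**
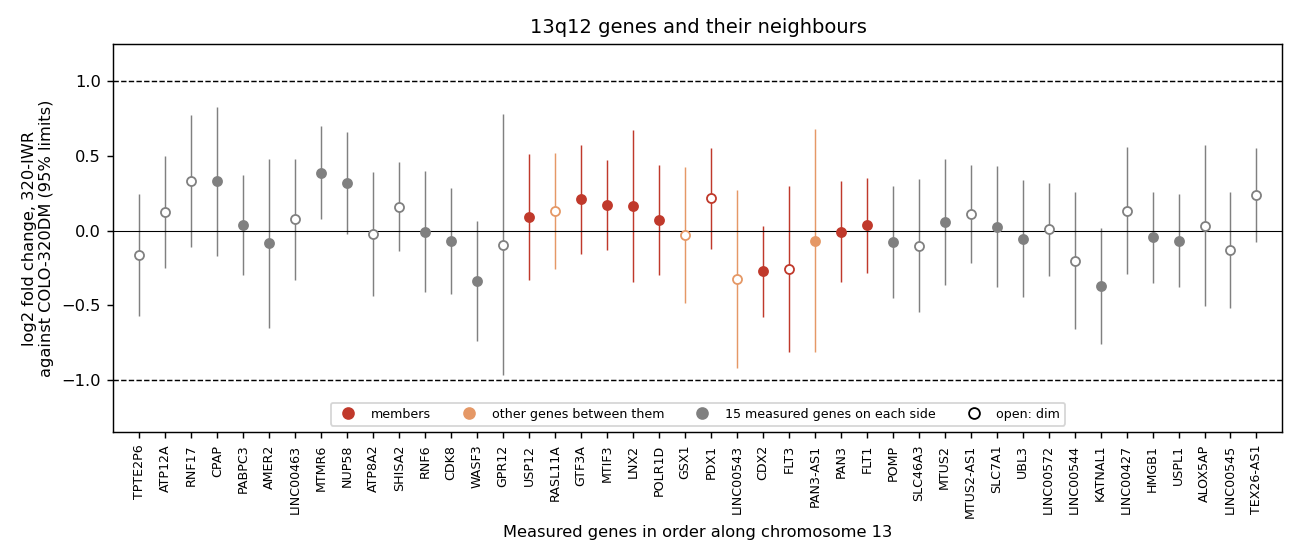
Log2 fold change, 320-IWR against COLO-320DM, with 95% limits, for measured genes in their order along chromosome 13, each by its brightest probe set. Members are red, the 4 other genes between them orange and 15 genes on each side grey, and open points are dim, and all points lie inside the dashed 2-fold marks.

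The genes that work with the members were mostly not called either. Of 113 measured genes in 11 lists of targets, partners and relatives, 1 rose, 0 fell and 11 had an unadjusted p under 0.05 in limma (among all genes 0.192% rose, 0.399% fell and 12.3% had such a p). The gene that rose was KRT20, a keratin of differentiated intestinal epithelium and 1 of 23 measured intestinal genes that CDX2 is known to activate or to act with. KRT20 had 199 and 160 in 320-IWR cells, against 49.6 and 54.6 in COLO-320DM cells. Its mean log2 value in COLO-320DM cells was 5.70, under the 6 that bounds dim values, so the distance above background there is unknown. The arrays were well apart, and the log2 fold change was 1.78 (standard error 0.16, limma adjusted p = 0.0412). Without COLO-320DM replicate 1 or 2 the log2 fold change was 1.71 and 1.85, but the call was lost (adjusted p = 0.203 and 0.148), the spread then coming from 320-IWR arrays alone. It was also lost under a robust prior with a trend (0.0529) and with 16 added to each intensity (0.0950). When either 320-IWR array was left out, 0 of all 54613 probe sets were called, while the log2 fold change of KRT20 was 1.62 and 1.94. The other 22 genes of the list were not called, the list median was 0.03, and 18 of the 23 were dim. CDX1, the closest relative of CDX2, had a log2 fold change of 0.03, with 80.4 and 72.4 in 320-IWR cells, against 78.8 and 70.4 in COLO-320DM cells.

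Of 21 measured subunits of RNA polymerases I and III, 14 were on the higher side and 0 were called. The largest was POLR3G, a subunit of RNA polymerase III, with a log2 fold change of 0.63 (adjusted p = 0.377), and the lowest POLR3GL, its paralog, with -0.19. Of 11 genes that act with GTF3A (subunits of TFIIIC and TFIIIB, and MAF1), 0 were called. MAF1, the repressor of RNA polymerase III, had 431 and 457 in 320-IWR cells, against 597 and 636 in COLO-320DM cells (log2 fold change -0.47, adjusted p = 0.288), and GTF3C2 had a log2 fold change of 0.47 (adjusted p = 0.610). Of 8 mitochondrial translation factors 0 were called, from MTRF1 at -0.05 to MTFMT, the formyltransferase of the initiator tRNA, at 0.54 (adjusted p = 0.315). Of 17 deadenylation genes 0 were called, from BTG1 at -0.66 to CNOT3 at 0.69.

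None of the 7 ligands and relatives of FLT3 passed the test, though the unadjusted p of 2 was under 0.05. KIT, the receptor of stem cell factor, had 176 and 275 in 320-IWR cells, against 866 and 984 in COLO-320DM cells. The arrays did not overlap, and the log2 fold change of -2.07 (standard error 0.25) had an adjusted p of 0.0770. KIT passed the test when the probe sets of each gene were averaged and when the replicate number was a block. KITLG, which encodes the ligand of KIT, had 239 and 310 in 320-IWR cells, against 137 and 162 in COLO-320DM cells (log2 fold change 0.87, adjusted p = 0.208). FLT3LG, the ligand of FLT3, was dim (log2 fold change -0.47). Among 8 VEGF ligands and receptors 0 were called, from VEGFA at -0.62 (adjusted p = 0.359) to VEGFB at 0.22. The 4 partners and relatives of USP12 ran from -0.12 (WDR48) to 0.19 (USP46). The 3 genes listed with LNX2 for their function (LNX1, NUMB and NUMBL) ran from -0.14 (NUMB) to 0.09 (NUMBL). The 4 ParaHox relatives ran from -0.03 (GSX1) to 0.42 (GSX2) and the 8 pancreatic and duodenal genes from -0.17 (SLC2A2) to 0.24 (ISL1). In each of these lists 0 were called. Dim were 2 of the 3 genes listed with LNX2, 3 of the 4 ParaHox relatives and 7 of the 8 pancreatic and duodenal genes. NUMB, GSX1, GSX2 and SLC2A2 are among the dim genes, so their fold changes may be understated.

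**Figure D4:**
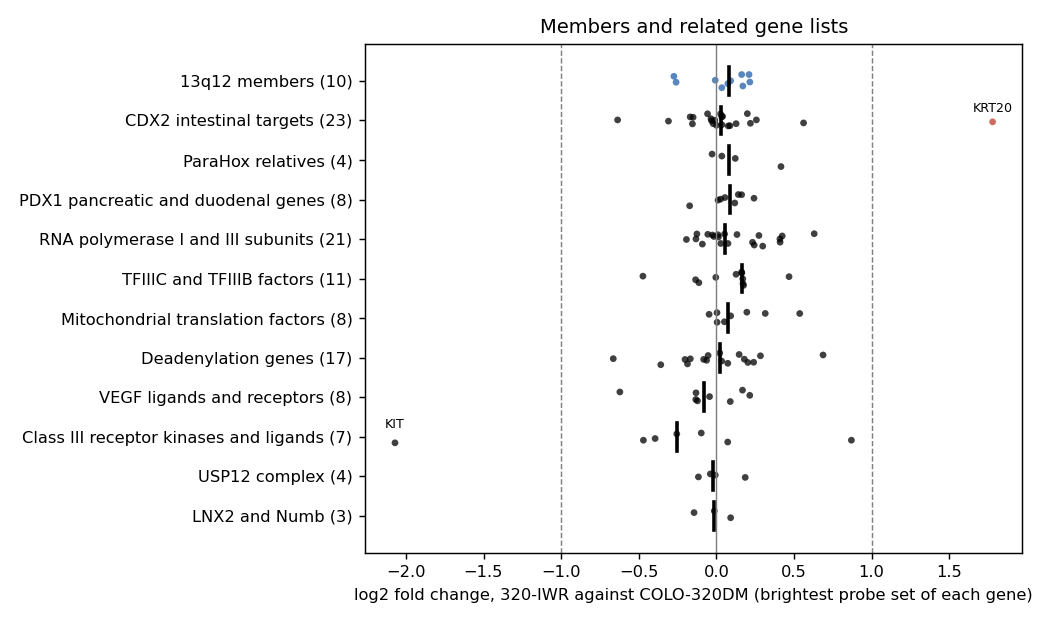
Log2 fold change, 320-IWR against COLO-320DM, of each measured member (blue) and of the genes of 11 related lists (black, called genes red), by brightest probe set, with a bar at each median and the number of measured genes in parentheses. KRT20 is the called gene, KIT lies below the 2-fold mark without passing the test in this fit, and the members lie between -0.27 and 0.22.

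The labelled cell type was checked against 10 markers of colorectal epithelium. KRT8 and KRT18, the simple-epithelium keratins, fell (log2 fold changes -2.26 and -1.67, limma adjusted p = 0.0155 and 0.0322) and KRT20 rose. CDX2, VIL1 and CDH17 were not dim and not called (log2 fold changes -0.27, 0.09 and -0.64). The 95% limits of CDH17 were wide (-2.34 to 1.06). EPCAM, CDH1, KRT19 and LGALS4 were dim in both lines. By log2 fold change 5 of the 10 were higher and 5 lower in 320-IWR cells. Differences between the lines cannot test the labelled cell type, so this mixed picture neither settles it nor speaks against it. According to the study's methods, COLO-320DM was authenticated by analysis of short tandem repeats. The same analysis was reported to show that 320-IWR cells derive from COLO-320DM. The KRT8 and KRT18 calls rest on _x_at probe sets, whose probes can also bind other transcripts. With any 1 of the 4 arrays left out, log2 fold changes ran from -2.37 to -2.15 for KRT8 and -1.78 to -1.55 for KRT18. Both calls were lost in these fits, in which a line is 1 array. Without either 320-IWR array 0 of all probe sets were called, so the loss there says nothing about KRT8 and KRT18. Adding 16 to each intensity also ended the call of KRT18 (limma adjusted p = 0.0646). Of 10 endothelial, 9 leukocyte and 10 fibroblast markers measured 0 were called, and 9, 6 and 6 of them were dim.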

How the data were processed

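According to the submitters' notes, the deposited intensity values of the 4 arrays were made with RMA, without a version, and the study's methods name GeneSpring GX for the normalization. They are on a linear scale, so they were log2-transformed. Each array was mapped to its line by its label. With R 4.3.3 and limma 3.58.1, 54613 probe sets (62 controls left out) entered lmFit and eBayes in a model with 1 term, the line, and p was adjusted by Benjamini-Hochberg over all of them. The prior had 2.78 degrees of freedom. Symbols came from the supplied platform annotation, in which 41091 probe sets have 1 symbol, 1801 several and 11721 none. None needed an update against the GRCh38.p14 gene table, which also gave gene order. In lists a gene is represented by its brightest probe set by mean log2 value. The members, the lists and the tests were chosen with earlier results of these data known. Text was to name all members, called list genes (up to 4) or otherwise the extremes of a list, and the 5 nearest genes on each side; LINC00543 and others beyond this were named after their values were seen. The fit was run on simulated data with independent noise on each array. Such data lack the shared deviations of same-numbered replicates, so that run does not show how the fit behaves under them. Promoter sequences and start sites are RefSeq's (GRCh38.p14), matched by symbol for 9 of 10 members. The number of arrays limits the precision. Alternatives covered a block for the replicate number, omission of each array in turn, other normalizations, priors, filters, thresholds and ways to summarise a gene.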

Additional observations from a re-analysis of the deposited data

How the results depend on the processing

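Of 24 member probe sets, limma called 0 with the replicate block, without either COLO-320DM array, without dim probe sets, without a fold limit, after cyclic loess or median scaling, and with a trended robust prior. An adjusted p under 0.01 and treat are stricter than the test used, and without either 320-IWR array 0 of all probe sets were called, so their counts of 0 say nothing further. The member genes' median log2 fold change stayed between 0.02 and 0.10 and that of the 30 flanking genes between -0.08 and 0.07. Of 126 fold changes of single members under alternatives, 116 had a test, 0 of those were called, and 9 of the 126 turned in sign. The 116 include the fits without either 320-IWR array, in which the lack of a call says nothing further. With arrays left out in turn, POLR1D ran from -0.028 to 0.18 (below 0 without COLO-320DM replicate 2 or 320-IWR replicate 1), USP12 from -0.075 to 0.26 (below 0 without 320-IWR replicate 1), LNX2 from -0.031 to 0.36 (below 0 without 320-IWR replicate 2) and PAN3 from -0.080 to 0.065 (above 0 without COLO-320DM replicate 1 or 320-IWR replicate 2). Leaving out 1 array also breaks the match of replicate numbers between the lines. Within each replicate number LNX2 was higher in 320-IWR cells (327 against 301 and 428 against 370). POLR1D probe set 218258_at was too (4344 against 4064 and 3772 against 3640), while USP12 213327_s_at and PAN3 went both ways. FLT1 had -0.030 without COLO-320DM replicate 1, -0.029 when its probe sets were averaged and -0.14 when those with _x_at or _s_at were dropped. CDX2 stayed negative (-0.31 to -0.19), as did FLT3 (-0.51 to -0.014), and PDX1 (0.14 to 0.29), GTF3A (0.083 to 0.34) and MTIF3 (0.14 to 0.22) stayed positive under the alternatives run on them. With arrays left out in turn, the members without overlap numbered 6 to 8, a line being then 1 array. A single array overlaps less easily with the other line, and the share over all genes in these fits is not given here. These counts therefore cannot be read as a rise over the 4 of the main fit. The dim filter removed PDX1 and FLT3, and MTIF3 and USP12 have no probe set without the _x_at or _s_at suffix.

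Over all probe sets, 202 were called; leaving out arrays gave 0 to 63, and an adjusted p under 0.01 gave 43. Same-numbered arrays share only a number in the labels; their deviations correlated across probe sets (r = 0.661), and with the replicate block limma called 576 probe sets, 0 of them of members. In the lists of partners it then called 2 genes, KIT and KRT20, as it did when probe sets were averaged per gene (2). With arrays left out, with a trended robust prior and with 16 added it called 0. The list and neighbour alternatives were chosen after seeing the data. Signal above background is unknown and limits what can be said of PDX1, FLT3 and FLT1.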
